A study of Mus musculus with 6 samples.

Results

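The chaperones that fold myosin and the small heat shock proteins (HSPs) that guard muscle filaments were followed through the differentiation of C2C12 cells by 10 genes, Unc45b, Unc45a, Smyd1, Hsp90aa1, Cryab, Hspb1, Hspb2, Hspb3, Hspb7 and Hspb8. They were taken by gene name, and every probe set annotated to one of these symbols alone was used, 29 of the 45037 probe sets tested. All 10 genes had such a probe set, out of 18193 genes represented this way. C2C12 is an immortalized mouse myoblast line that forms multinucleated myotubes when serum is withdrawn. Differentiated cultures were harvested on day 6 in 2% horse serum, and proliferating cultures were kept in 20% serum, with 3 arrays in each group. Each RNA sample was a mixture of several pools of culture plates, so p-values rest on the spread between such mixtures. Differentiated plates also held cells that had not fused, and in such mixed RNA more expressing cells cannot be told apart from more transcript per cell.

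Myosin heavy chain does not fold unaided. UNC45 proteins bind the myosin head together with HSP90, and SMYD1 is a muscle methyltransferase found on the myosin filament that is needed for thick filament assembly in fish and mouse. UNC45B is the form of striated muscle, while UNC45A is made in most tissues. Small HSPs hold unfolding proteins in a refoldable state without using ATP, and in muscle they gather on desmin, filamin, titin and actin filaments, most of all under stretch or heat.

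By the brightest probe set of each gene, Unc45b, Smyd1, Cryab, Hspb2, Hspb3, Hspb7 and Hspb8 rose, Unc45a fell, and Hsp90aa1 and Hspb1 did not pass the test. In differentiated cells 7 of 10 genes were called higher at a Benjamini-Hochberg adjusted p under 0.05 from limma (8.63% of all genes), and 1 of 10 was called lower (9.00% of all genes). The median log2 fold change was 1.73 over the 10 genes and 0.057 over all genes. Of the 29 probe sets, 13 were called higher (6.14% of all probe sets) and 3 lower (6.43%). In 15 of the 29 every differentiated array lay above every proliferating one (14.9% of all probe sets), and in 4 every differentiated array lay below (12.3%). Signals are linear MAS 5.0 values, changes are on the scale of log2(signal + 15), and a signal at or under the brightest bacterial control probe set of its array is called background.

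**Figure D1:**
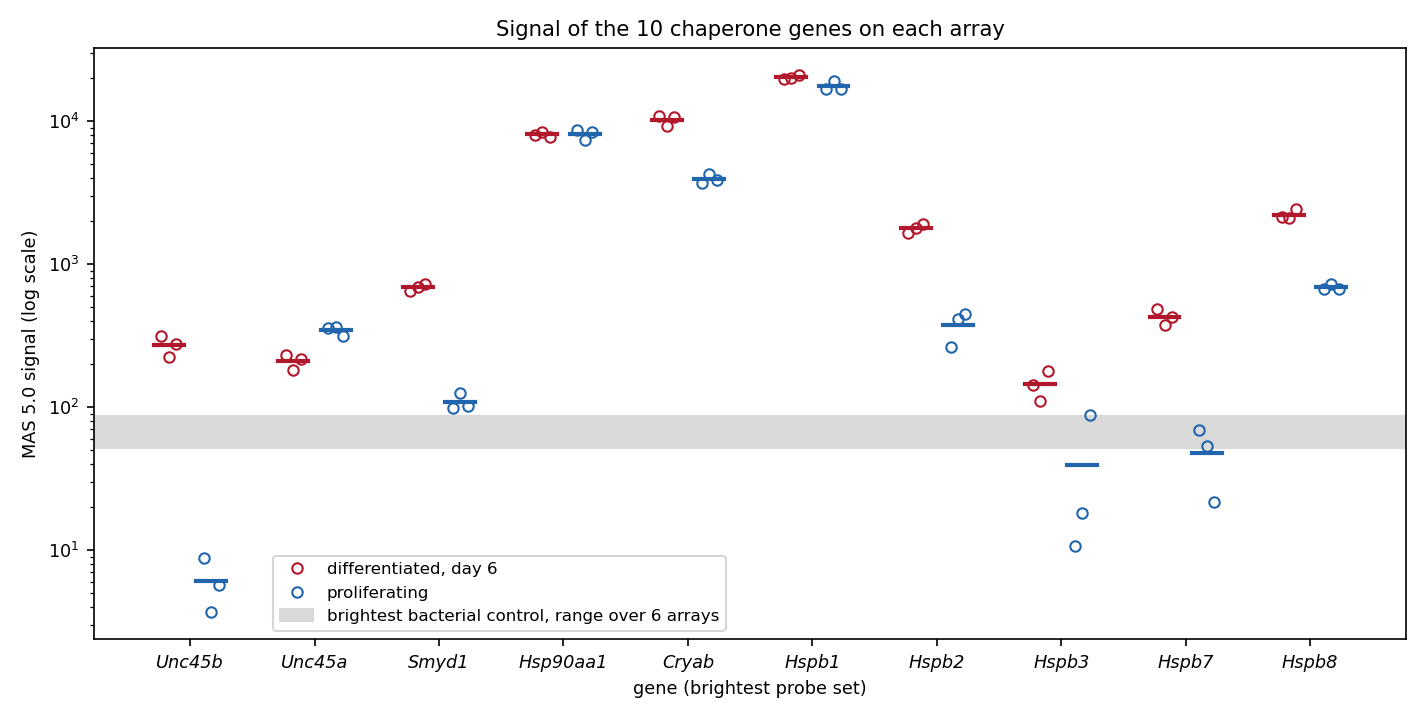
MAS 5.0 signal (vertical axis, log scale) of the brightest probe set of each of the 10 genes (horizontal axis) on the 3 differentiated arrays (red, left of each pair) and the 3 proliferating arrays (blue, right). Circles are arrays, bars are group means, and the grey band runs over the background limits of the 6 arrays, 51.9 to 87.0. Unc45b and Hspb7 lay at background on all 3 proliferating arrays, and the groups of Hsp90aa1 overlap.

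The pair of UNC45 genes moved in opposite directions. The single probe set of Unc45b (1436939_at) had signals of 316, 225 and 278 in differentiated cells, against 8.8, 3.7 and 5.7 in proliferating cells. All 3 proliferating values were far under the bacterial controls, so Unc45b was at background there and at least 4.08-fold higher in differentiated cells. The fitted log2 fold change was 3.77 (standard error 0.41, adjusted p = 3.5e-05), a size that depends on the pseudocount.
Unc45a had signals of 231, 182 and 217 in differentiated cells, against 359, 362 and 315 in proliferating cells at its brightest probe set (1455912_x_at). The groups did not overlap, and the log2 fold change was -0.68 (standard error 0.17, adjusted p = 0.016). A second probe set (1415866_at) was at 182, 147 and 207 in differentiated cells, against 308, 317 and 241 in proliferating cells, a change of -0.65 (standard error 0.20, adjusted p = 0.049). The call at the brightest probe set was lost without differentiated replicate 2 (-0.59, adjusted p = 0.061), without proliferating replicate 1 (-0.65, 0.065) or 2 (-0.65, 0.054) and with eBayes without trend (adjusted p = 0.082). The call at the second was lost without differentiated replicate 1 or 2 or proliferating replicate 1 or 2 (adjusted p = 0.11, 0.16, 0.16 and 0.15). Another Unc45a probe set (1459867_x_at) was above background on 1 of 3 differentiated arrays and on all 3 proliferating ones, at 7.8, 99.4 and 8.8 against 126, 126 and 144.5. It missed the threshold (log2 fold change -1.89, adjusted p = 0.058), and without differentiated replicate 2, its one bright differentiated array, it passed (-2.66, adjusted p = 0.0043). It also passed with quantile normalization (adjusted p = 0.048), with dim probe sets left out (0.018) and by the regularized test (0.014). The last Unc45a probe set (1458824_at) was at background on all 6 arrays.
On each array the log2 ratio of the Unc45b to the Unc45a signal was taken, each gene at its brightest probe set. It was 0.35 ± 0.07 in differentiated cells and -4.10 ± 0.20 in proliferating cells (SD, n = 3 each), a difference of 4.45 that fell to a bound of at least 2.75 with Unc45b set at background on the proliferating arrays. The ratio was higher on all 3 differentiated arrays (exact permutation test, 2-sided, p = 0.1, the smallest that 3 against 3 allows). Only the change of this ratio carries meaning, since levels of different probe sets are not on a common scale.

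Smyd1 rose at 3 of its 6 probe sets. At the brightest (1450203_at) the signals were 651.5, 691 and 724.5 in differentiated cells, against 99.4, 126 and 102 in proliferating cells, above background on every array. The log2 fold change reached 2.51, with a standard error of 0.16 and an adjusted p of 3.8e-07, a 5.70-fold difference. A further probe set (1421329_a_at), with 316.5, 225 and 263 in differentiated cells against 98.6, 119 and 91.3 in proliferating cells, gave 1.26 (standard error 0.23, adjusted p = 0.0022). The last of these (1441667_s_at) gave 2.95 (standard error 0.48, adjusted p = 0.00099), with 1 of 3 proliferating arrays above background.
The probe sets of Smyd1 did not all move the same way. The probe sets 1443726_at and 1443727_x_at share one source record in the platform annotation. The first was at 94.9, 115 and 191 in differentiated cells, against 317, 269 and 207 in proliferating cells, called lower at -0.94 (standard error 0.27, adjusted p = 0.035). Its call was lost without differentiated replicate 1 or 2 or proliferating replicate 1 or 2 (adjusted p = 0.13, 0.11, 0.16 and 0.10), with eBayes without trend (0.14) and with the replicate block (0.057). The second did not pass, at -0.14 (95% interval -0.64 to 0.36), with overlapping groups. What part of the Smyd1 transcript these probe sets read was not tested. The remaining one (1427714_at) was at background on all 6 arrays.

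Promoter windows of 250 bases before the annotated start site were available from RefSeq (build GRCm38.p6) for 7 of the 10 genes. Cryab, Hspb2 and Hsp90aa1 had no window at hand, so they were not searched for motifs. The 120 bases before the start site are shown for Unc45b and Smyd1, the thick filament chaperone genes that rose, with the matches to searched motifs in capitals. The E-box, a site type of MyoD, myogenin and other factors, was searched as CANNTG, and the TATA box as TATAAA, both on either strand. CANNTG takes in all forms of the E-box, so a match does not point to MyoD or myogenin.
Unc45b (chr11:82911133-82911252, plus strand): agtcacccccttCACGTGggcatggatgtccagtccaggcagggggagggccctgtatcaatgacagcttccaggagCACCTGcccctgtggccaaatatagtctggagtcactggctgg
Smyd1 (chr6:71262282-71262401, minus strand): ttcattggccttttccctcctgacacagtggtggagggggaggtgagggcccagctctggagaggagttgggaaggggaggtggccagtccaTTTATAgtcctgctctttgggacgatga
Unc45b had 2 E-boxes, at bases -108 to -103 and -43 to -38, and Smyd1 had none in its window. An E-box is common, present in 66.2% of 32851 windows of this length and in 5 of these 7. The Smyd1 capitals are the TATA box letters read on the opposite strand, at -28 to -23, found in 12.4% of all windows. A match to letters is a description of the sequence and no measure of binding.

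Hsp90aa1 encodes the stress-inducible form of cytosolic HSP90, the partner of UNC45, and its transcript was level. At its brightest probe set (1438902_a_at) the signals were 7980, 8394 and 7777 in differentiated cells, against 8681, 7396 and 8399 in proliferating cells. The groups overlapped, and the log2 fold change was -0.017 with a 95% interval of -0.24 to 0.21 (adjusted p = 0.96). The next 2 probe sets by signal gave 0.019 (95% interval -0.23 to 0.27) and -0.11 (-0.44 to 0.23). These intervals leave room for changes up to about that size in either direction. A dim probe set stood above background on 2 of 3 arrays of each group (-0.042, adjusted p = 0.97), and the last (1441827_x_at) was at background on all 6 arrays. The sign of these small values changed with normalization and with single arrays.

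Of the small HSPs, Cryab (alpha B-crystallin, a chaperone of desmin) and its neighbour Hspb2 both rose. Cryab had signals of 10809, 9254 and 10649 in differentiated cells, against 3663, 4275 and 3846 in proliferating cells (1416455_a_at), which is 1.38 higher on the log2 scale, with a standard error of 0.10 (adjusted p = 1.7e-06). It was thus already well above background in proliferating cells. A second probe set (1434369_a_at) gave nearly the same value, 1.39 (standard error 0.10, adjusted p = 1.3e-06), from 4959, 4820 and 5779 in differentiated cells against 1929, 2140 and 1846 in proliferating cells. The dim one (1435837_at), with 1 of 3 proliferating arrays above background, missed the threshold at 0.93 (standard error 0.42, adjusted p = 0.21), though its groups did not overlap.
Hspb2, also named for its binding to myotonic dystrophy kinase, had 1642, 1778 and 1901 in differentiated cells, against 265, 412 and 448 in proliferating cells (1429888_a_at). This was a 4.69-fold difference, 2.23 on the log2 scale with a standard error of 0.17 (adjusted p = 1.3e-06). Hspb2 and Cryab are neighbouring genes on mouse chromosome 9. The rise of Cryab was the smaller of the pair: the log2 ratio of Cryab to Hspb2 was 2.52 ± 0.17 in differentiated cells and 3.37 ± 0.33 in proliferating cells (SD, n = 3 each), a difference of -0.85. The ratio was lower on all 3 differentiated arrays (exact permutation test, 2-sided, p = 0.1, the smallest possible).

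Hspb8 and Hspb7 also rose. Hspb8 works with BAG3 to pass damaged filamin to autophagy. Its signals were 2132, 2095 and 2422 in differentiated cells, against 673, 726.5 and 675 in proliferating cells (1417013_at), a rise of 1.66 on the log2 scale with a standard error of 0.10 (adjusted p = 1.9e-07). A second probe set (1417014_at) gave 1.64 (standard error 0.11, adjusted p = 4.5e-07). The other one (1456434_x_at) went with neither, at 84.8, 509 and 473 in differentiated cells against 367, 372 and 599 in proliferating cells. Its differentiated arrays were far apart, the groups overlapped and it did not pass (-0.61, 95% interval -1.66 to 0.44).
Hspb7, the cardiovascular HSP, binds filamin C and limits actin filament length in mouse heart. At the brightest of its probe sets (1421290_at) it had 482, 375 and 425 in differentiated cells, against 69.4, 53.7 and 21.6 in proliferating cells, each of the proliferating values at background. Hspb7 was therefore at least 6.41-fold higher (fitted log2 fold change 2.88, adjusted p = 3.6e-05). The other probe sets also rose, 1 with all proliferating arrays at background (1421289_at, at least 2.93-fold higher, adjusted p = 0.0002) and 1 with a single such array above it (1434927_at, a change of 3.18 with a standard error of 0.44, adjusted p = 0.00028).

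Hspb3, a small HSP of muscle that forms a complex with HSPB2, was called higher less firmly. Its only probe set (1449872_at) had 142, 110.5 and 180 in differentiated cells, against 10.8, 18.3 and 88.5 in proliferating cells. The groups did not overlap, but proliferating replicate 3 stood apart from the other two and was the only proliferating array above background. It was higher by 1.81 on the log2 scale (95% interval 0.66 to 2.96, adjusted p = 0.041). The call was lost without any one of differentiated replicates 1, 2 and 3 (1.81, 1.97 and 1.65) or proliferating replicates 1 and 2 (1.42 and 1.60), at adjusted p-values of 0.080 to 0.16. It was also lost with quantile normalization (1.74, adjusted p = 0.051) and with eBayes without trend (0.12), and it was kept at 2.42 without proliferating replicate 3.

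Hspb1 (HSP27 in human, HSP25 in mouse), which caps and protects actin filaments, is made in many cell types. It was bright in both groups, with 19753, 19878 and 20968 in differentiated cells, against 16743, 19070 and 16706 in proliferating cells (1422943_a_at). The groups did not overlap, yet the difference did not pass. The log2 fold change was 0.21 with a standard error of 0.12 (95% interval -0.042 to 0.46, adjusted p = 0.33). The other probe set (1425964_x_at) gave 0.19 (95% interval -0.055 to 0.44, adjusted p = 0.37), with overlapping groups. With quantile normalization both passed, at 0.42 in each (adjusted p = 0.011 and 0.0083), below 1.5-fold.
The windows of Hspb1, Hspb7 and Hspb3 are shown next, because among these small HSP genes Hspb1 did not pass, while Hspb7 and Hspb3 were called higher. They were thus picked by their calls, and Hspb8, also called higher, is not shown. Whether motifs go with the calls was not tested. Capitals mark E-boxes, the TATA box, the heat shock element (searched as GAANNTTC and TTCNNGAA), the MCAT element (CATTCC), the MEF2 site and the CArG box.
Hspb1 (chr5:135887799-135887918, plus strand): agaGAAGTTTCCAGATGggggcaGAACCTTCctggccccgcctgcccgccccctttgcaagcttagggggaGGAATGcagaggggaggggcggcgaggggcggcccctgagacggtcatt
Hspb7 (chr4:141420659-141420778, plus strand): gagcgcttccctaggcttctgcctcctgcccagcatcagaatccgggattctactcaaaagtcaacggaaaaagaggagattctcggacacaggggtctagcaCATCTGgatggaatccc
Hspb3 (chr13:113663677-113663796, minus strand): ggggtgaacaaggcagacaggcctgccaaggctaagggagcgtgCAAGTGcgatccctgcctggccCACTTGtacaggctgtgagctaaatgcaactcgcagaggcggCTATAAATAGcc
Hspb1 had 2 matches to the heat shock element form GAANNTTC, at -117 to -110 and -97 to -90, an E-box between them at -109 to -104 that directly follows the first, a further E-box at -138 to -133, above the bases shown, and an MCAT element read on the opposite strand at -49 to -44. The form GAANNTTC was in 6.69% of all windows and in 2 of these 7 (Hspb1 and Hspb3, where it lies farther up at -224 to -217), and the form TTCNNGAA in 7.17% of all windows and in 0 of the 7. Hspb3 had 2 E-boxes and a MEF2 site at -12 to -3, which overlaps its TATA box letters. The MEF2 site was in 2.92% of all windows and in 1 of the 7, the MCAT element in 12.6% and in 1, and the CArG box in 1.47% and in 0. Hspb7 had a single E-box at -17 to -12. Unc45a had no match, and Hspb8 had only an E-box at -132 to -127, outside the 120 bases shown for the others.

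**Figure D2:**
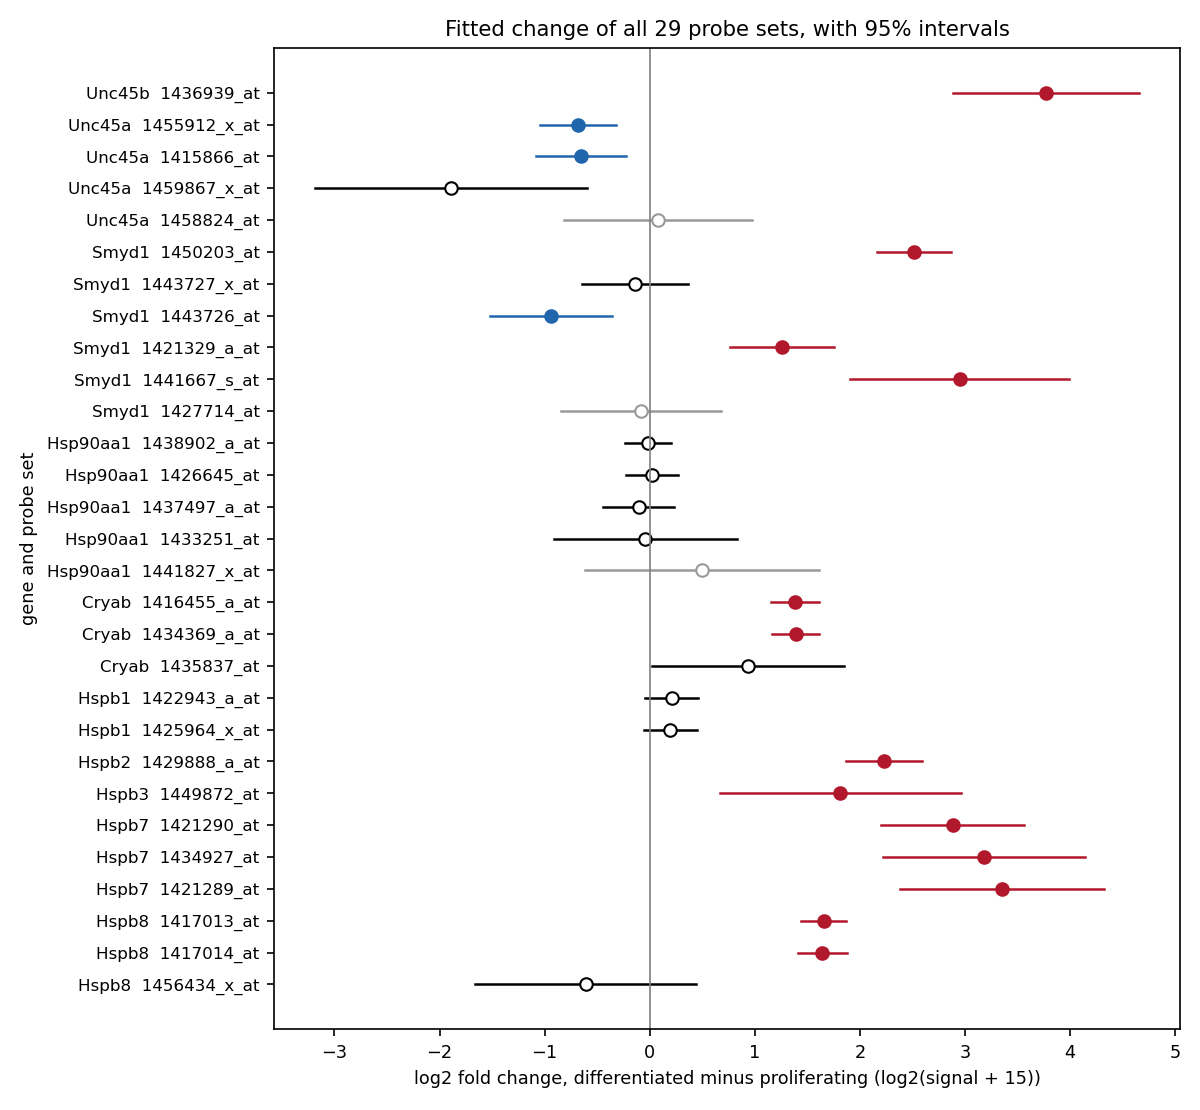
All 29 probe sets (vertical axis) with their difference between differentiated and proliferating arrays on the scale of log2(signal + 15) (horizontal axis), positive where higher in differentiated cells, and 95% intervals from limma as lines. Filled red circles were called higher (13) and filled blue ones lower (3), open black circles did not pass, and open grey ones were at background on all 6 arrays (3). All probe sets of Cryab and of Hspb7 lie above 0, while those of Smyd1 lie on both sides.

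Of 5 other genes listed with the small HSPs, 1 rose and 1 fell. For this and all later lists, the shares over all genes are 8.63% called higher and 9.00% called lower. Hspb6 (HSP20, a small HSP of striated and smooth muscle) fell, with signals of 319, 283.5 and 371 in differentiated cells, against 655, 647 and 606 in proliferating cells. This was a change of -0.95 with a standard error of 0.14 (adjusted p = 0.00035). Hspb11, which despite its symbol belongs to the intraflagellar transport complex, rose by 0.73 (standard error 0.15, adjusted p = 0.0054), a call lost with eBayes without trend. Hspb9 and Cryaa were at background on all 6 arrays and Odf1 on 5 of 6.

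The clients of these chaperones are listed beside them, as a description of the setting. Of 10 myosin heavy chain genes, 4 were higher and 2 lower, with a median change of 0.96, or 0.40 once genes at background in one group are set at their bounds. Embryonic Myh3 reached 5667 ± 63.0 in differentiated cells, against 72.1 ± 27.9 in proliferating cells (SD, n = 3 each), 6.09 higher on the log2 scale (adjusted p = 1.1e-09). Myh1 was at least 14.0-fold and Myh8 at least 1.28-fold higher, each against background on every proliferating array, and slow Myh7 rose by 4.27 (standard error 0.38), with 1 of 3 proliferating arrays above background. The nonmuscle forms Myh9 (-0.44, adjusted p = 0.041) and Myh10 (-0.96, adjusted p = 0.002) fell. The call of Myh9 was lost without differentiated replicate 1, 2 or 3 or proliferating replicate 1 or 3 (largest adjusted p = 0.19).
Of 10 genes of the BAG3 route and its filament clients, 6 were higher and 1 lower, with a median of 0.77. The lower one was vimentin (Vim, -0.53, adjusted p = 0.01), a call lost without differentiated replicate 1 or 2 or proliferating replicate 3 (largest adjusted p = 0.082). Bag3, the partner of HSPB8, rose by 0.72 (standard error 0.15, adjusted p = 0.0064), Synpo2, which ties BAG3 to membrane formation, by 2.31 (standard error 0.11, adjusted p = 3.4e-08), and filamin C (Flnc) by 0.94 (standard error 0.11, adjusted p = 6.2e-05). Titin (Ttn) rose by 3.76 (standard error 0.15, adjusted p = 5.1e-09), and Actn2 was at least 2.23-fold higher. Hspa8 (-0.16, adjusted p = 0.45) and Stub1 (-0.22, adjusted p = 0.33) did not pass.
The SMYD family did not follow Smyd1. Smyd2, a methyltransferase of cytosol and sarcomere, was lower, with a change of -0.72 and a standard error of 0.10 (adjusted p = 0.00039), and Smyd3 (0.038), Smyd4 (-0.45, adjusted p = 0.054) and Smyd5 (-0.64, adjusted p = 0.051) did not pass, nor did Naca (-0.26), whose muscle splice form binds SMYD1. Smyd4 passed without proliferating replicate 2 (-0.59, adjusted p = 0.0093), and Smyd5 without differentiated replicate 1 or proliferating replicate 3 (adjusted p = 0.04 in each).

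Of 17 HSP90 partners and relatives, 1 was higher and 3 lower, with a median of -0.21. The one higher was Itgb1bp2 (melusin, a muscle protein that binds HSP90), at 717 ± 89.6 in differentiated cells and 36.0 ± 8.59 in proliferating cells (SD, n = 3 each), at least 10.8-fold higher. Fkbp4 (-0.56, adjusted p = 0.0019), Nudc (-0.55, adjusted p = 0.008) and Sugt1 (-0.35, adjusted p = 0.041) fell. The call of Sugt1 held only without differentiated replicate 3 and was lost without each other array (-0.42 to -0.27, largest adjusted p = 0.18).
Of 35 genes of the HSP70, HSP40 and BAG families, 11 were higher and 3 lower (median 0.18). With 1 array left out, 8 to 11 were higher and 2 to 3 lower. The largest rises in the list were of HSP40 co-chaperones, Dnajb9 of the endoplasmic reticulum (1.82, standard error 0.15, adjusted p = 2.5e-06), Dnaja4 (1.54, standard error 0.21, adjusted p = 0.00023), Dnajb5 (1.33, standard error 0.22, adjusted p = 0.0011) and Dnajb2 (0.99, standard error 0.10, adjusted p = 2.8e-05).
Chaperonins, which fold actin and tubulin in the cytosol and matrix proteins in mitochondria, were listed with prefoldin subunits and Pdcl3. Of these 18 genes, 11 were lower and 0 higher, both with limma and by the regularized test, with a median of -0.39. At an unadjusted p under 0.05, 12 were lower and 0 higher. Without differentiated replicate 1 or 2, 7 were lower. The lower genes included the prefoldin subunits Pfdn4 (-0.55, adjusted p = 0.002) and Pfdn6 (-0.50, adjusted p = 0.016). The call of Pfdn6 was lost without differentiated replicate 1 or proliferating replicate 2 (largest adjusted p = 0.09). Pfdn1, Pfdn2, Pfdn5, Vbp1 and Pdcl3 did not pass, nor did the chaperonin genes Cct4 and Cct6b. Mitochondrial Hspd1 was at 5796 ± 273 in differentiated cells and 10743 ± 846 in proliferating cells (SD, n = 3 each), a change of -0.89 with a standard error of 0.10 (adjusted p = 6e-05). Its partner Hspe1 fell by 0.73 (adjusted p = 0.028), a call lost without differentiated or proliferating replicate 1 or 2 (largest adjusted p = 0.14), and the cytosolic subunits Cct3 and Cct6a by 0.71 and 0.64 on the log2 scale. None of 4 genes of the heat shock factors and their binding protein passed, Hsf2 (0.090), Hsf4 (0.042), Hsf5 (0.30) and Hsbp1 (0.27), and 0 of these 4 had an unadjusted p under 0.05 or passed by the regularized test. Hsf1 had no probe set annotated to it alone, so it was not measured here. Hsf2 and Hsf5 were dim, each above background on 2 of 3 differentiated and 1 of 3 proliferating arrays. Hsbp1 passed without proliferating replicate 2 (0.45, adjusted p = 0.034).

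**Figure D3:**
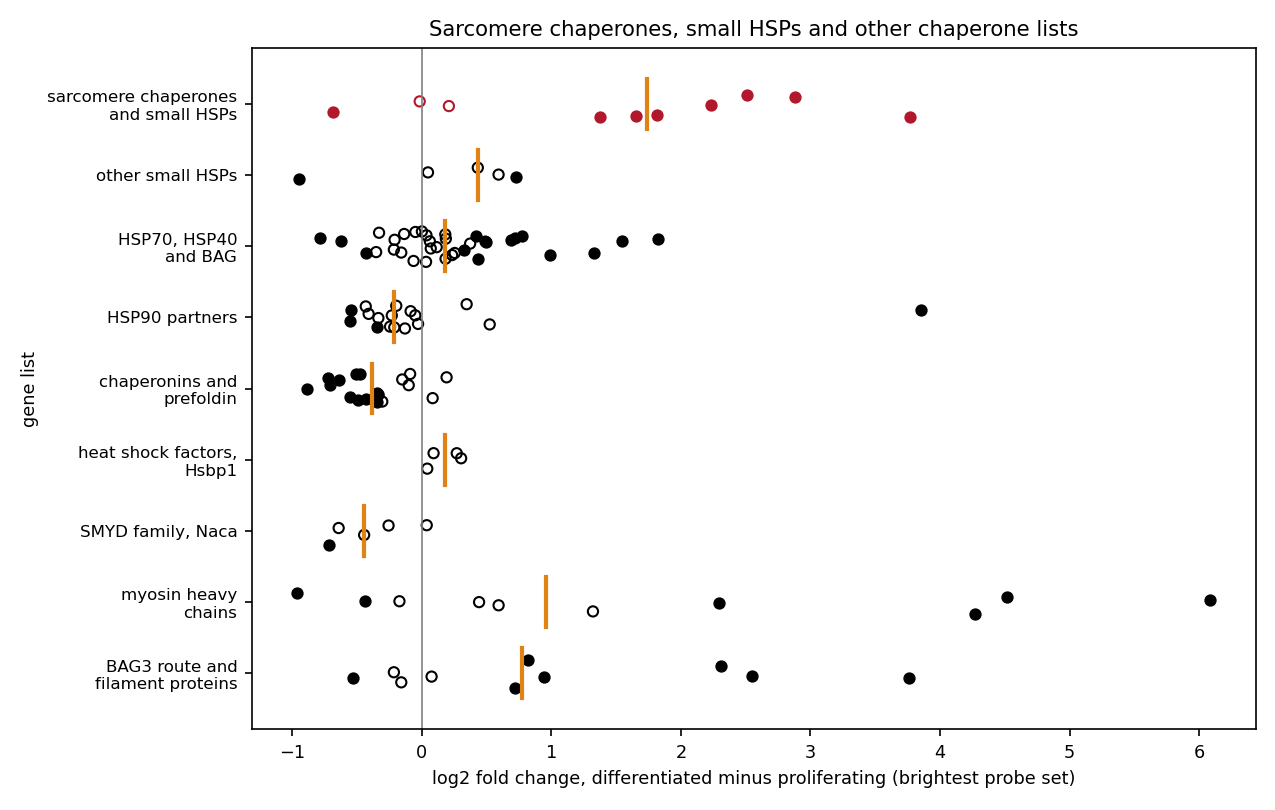
Change of each gene's brightest probe set on the log2 scale (horizontal axis, positive where higher in differentiated cells), by gene list (vertical axis). Filled circles passed at an adjusted p under 0.05, open circles did not, and orange lines are the list medians. These were 1.73 for the 10 sarcomere chaperone and small HSP genes in the top row (red) and -0.39 for the chaperonins and prefoldin. For genes at background in one group the fitted value is plotted, which is no bound.

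The labels were checked against markers. All 8 muscle markers were higher in differentiated cells, with a summed signal of 75150 to 78449 on the differentiated arrays and of 4538 to 5669 on the proliferating arrays. All 5 markers of cycling cells with a probe set named here were lower, with sums of 1043 to 1121 on the differentiated and 13007 to 13492 on the proliferating arrays. Of 6 markers of myoblasts and unfused reserve cells, Id1 (-1.85), Id2 (-2.10) and Id3 (-2.55) were lower, while Myf5 (-0.10) and Myod1 (0.28, adjusted p = 0.11) did not pass and Pax7 was at background on all 6 arrays. Their sums ran from 2844 to 3252 on the differentiated and from 5259 to 6113 on the proliferating arrays. Of markers of other cell types, 0 of 4 adipocyte genes and 0 of 5 endothelial genes passed with limma or had an unadjusted p under 0.05, and 1 of 6 fibroblast genes (Pdgfra, 1.24, adjusted p = 0.023) and 1 of 5 leukocyte genes (Adgre1, 0.87, adjusted p = 0.049) was higher. At an unadjusted p under 0.05, 2 fibroblast genes were higher (Pdgfra and Lum) and 1 lower (Thy1), and 1 leukocyte gene was higher. The call of Adgre1 was lost without any 1 of the 6 arrays and that of Pdgfra without any 1 differentiated array. Summed fibroblast markers ran from 452 to 533 on the differentiated and from 217 to 295 on the proliferating arrays, with Thy1 and Pi16 at background throughout. Summed leukocyte markers ran from 346 to 449 on the differentiated and from 326.5 to 383 on the proliferating arrays. Their part in the changes of the chaperone genes was not tested. Median signals were 72.3 to 81.4 on the differentiated and 68.0 to 73.0 on the proliferating arrays.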

How the data were processed

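Transcripts of C2C12 cells were hybridized to Affymetrix mouse genome arrays, 3 from differentiated and 3 from proliferating cultures. The authors analysed the images with MAS 5.0 and deposited linear signal intensity values, each array scaled to a trimmed mean of 250. Their later GCRMA step needs probe-level data not used here. MAS 5.0 subtracts mismatch signal, so dim values are noisy. After 64 Affymetrix controls were left out, 45037 probe sets were fitted as log2(signal + 15) with limma 3.58.1 in R 4.3.3 (lmFit, eBayes with trend, 2-sided, Benjamini-Hochberg). The platform annotation gave 1 symbol to 34945 probe sets, several to 932 and none to 9160. A gene is represented by its probe set with the highest mean. Background is the brightest of 27 Bacillus subtilis controls on each array. A lower bound sets the other group's mean log2 signal against it, without the pseudocount. The genes and lists were chosen with earlier results of these data known. Named by rule are all 10 genes and up to 4 passing genes with the largest changes of each list. The rule also takes in the small HSP, heat shock factor and SMYD genes. Bag3, Myh9, Myh10, Hspa8, Stub1, Vim and the markers were named after their values were seen. The Pfdn genes, Vbp1, Pdcl3, Cct4 and Cct6b were named outside this rule as well. A ratio of Hsp90aa1 to another HSP90 gene was planned and not made, since no probe set named here stands for the other. Fits were tested on simulated data with changes placed only in brighter probe sets, so not in any at background in proliferating cells. Only 3 arrays per group limit the precision. Alternatives covered normalization, pseudocount, dim probe sets, variance model, the regularized test of the methods, thresholds, pairing and single arrays. Ratios used Python 3.11.15 and scipy 1.17.1.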

Additional observations from a re-analysis of the deposited data

How the results depend on the processing

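Of 26 probe sets above background on at least 1 array, 12 were called higher under all 16 alternatives, those of Unc45b, Smyd1 (1450203_at, 1421329_a_at, 1441667_s_at), Cryab (1416455_a_at, 1434369_a_at), Hspb2, Hspb7 (all 3) and Hspb8 (1417013_at, 1417014_at). With eBayes without trend, 2669 probe sets were called in place of 5659, and 0 of the 29 probe sets and 0 of the 10 genes were called lower. With all probe sets of a gene averaged, 0 genes were called lower. With 1 array left out, 0 to 3 probe sets and 0 to 1 genes were called lower, and 12 to 13 probe sets and 6 to 7 genes higher. The change of the ratio of Unc45b to Unc45a was 6.05 with a pseudocount of 1 and 3.13 with it at the 40th percentile of signals, since Unc45b was at background in proliferating cells.

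Values of some probe sets that did not pass changed sign. Hsp90aa1 was at 0.090 (1438902_a_at) and 0.031 (1437497_a_at) with quantile normalization and at -0.033 (1426645_at) with arrays scaled to the same 75th percentile. With single arrays left out it ran from -0.086 to 0.030 (0.0079 without differentiated replicate 3, 0.0298 and 0.0060 without proliferating replicates 1 and 3) at 1438902_a_at. At 1426645_at it ran from -0.0897 (without proliferating replicate 2; -0.0060 without differentiated replicate 2) to 0.10, from -0.22 to 0.069 (0.019 without proliferating replicate 1) at 1437497_a_at and from -0.39 to 0.29 (0.056 without proliferating replicate 2) at 1433251_at. Smyd1 at 1443727_x_at ran from -0.32 to 0.11 and Hspb8 at 1456434_x_at from -1.03 to 0.17, both at the highest without differentiated replicate 1. The causes were not tested.

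The labels do not say whether replicate numbers pair the arrays. Deviations from the group means of same-numbered arrays had correlations of 0.012, 0.001 and 0.009 across probe sets. Those of differently numbered arrays ran from -0.015 to 0.005. Values this near 0, over many dim probe sets, cannot decide whether the arrays were paired. With the replicate number as a block 5287 probe sets were called, Unc45a at 1415866_at (-0.65, adjusted p = 0.082) and Smyd1 at 1443726_at (-0.94, adjusted p = 0.057) no longer passed, Unc45a at 1459867_x_at did (-1.89, adjusted p = 0.048), while the ratio differences of Unc45b to Unc45a (4.45) and Cryab to Hspb2 (-0.85) cannot change under a block in a balanced design.

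In the other lists, eBayes without trend called 0 other small HSP genes higher in place of 1. In the chaperonin and prefoldin list it called 1 gene lower in place of 11. Of HSP70, HSP40 and BAG genes it called 4 higher in place of 11. It called 0 lower in that last list, among HSP90 partners and among the myosin, SMYD and BAG3 lists. In the chaperonin and prefoldin list, 7 genes were called lower with quantile normalization and 4 at a minimum of 1.5-fold. That minimum also called 7 HSP70, HSP40 and BAG genes higher, and 0 HSP90 partners, 0 BAG3 list genes and 1 myosin gene (2 with limma) lower. Quantile normalization and the block each called 1 myosin gene lower. The block, the regularized test and the omission of arrays were added for these lists after seeing the data. The regularized test called 5 HSP90 partners (3 with limma) and 3 SMYD genes (1 with limma) lower, and quantile normalization and the block each called 2 SMYD genes lower.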

Other observations

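For 3 of the genes, the genes whose brightest probe set lay closest over the 6 arrays were sought among 11206 genes above background on every array of a group, by the root mean square distance of log2(signal + 15) after each was centred on its mean. For Unc45b these were Acpp (distance 0.22), Nmrk2 (0.23) and C1qtnf3 (0.24). For Smyd1 they were Casp4 (0.13), Cpq (0.13) and Otud1 (0.14), and for Cryab they were Itm2b (0.061), Pdlim2 (0.072) and Inhbb (0.080). With 3 arrays in each of 2 groups, this measure mostly ranks genes by the size of their difference between the groups. Unc45b, Acpp (mean signal 5.6) and Nmrk2 (10.3) were at the level of background in proliferating cells, so the distances to Unc45b depend on values under background and on the pseudocount and give no order.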
